A study of Mus musculus with 3 samples.

Results

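The cells described here were the stromal cells of the mouse ovary that carried transcripts of *Mfap5* or *Clec3b*. They were chosen from the deposited scRNA-seq table by the values of 8 genes. A cell was a member when *Dcn* was at 2 or more on the natural log scale of the table, when *Mfap5* or *Clec3b* or both were at 1 or more, when *Inha* and *Cyp17a1* were each under 2, and when *Rgs5*, *Ptprc* and *Pecam1* were at 0. On a linear scale the thresholds stand for 6.39 unique molecular identifiers (UMIs) of *Dcn* and 1.72 UMIs of a marker per 10000 UMIs of the cell. In all, 1613 of the 31776 cells met the rule. They made up 26.7% of the 6033 *Dcn* cells that passed the other limits, called the gate cells below, and the remaining 4420 gate cells served for comparison.

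Ovaries of *Mus musculus* were profiled by 10X Genomics scRNA-seq at 0 h (H0), 1 h (H1) and 6 h (H6) of hCG, the gonadotropin that stands in for the LH surge and brings on ovulation, with a single library for each. The ovaries for scRNA-seq are described as those of Kunming mice aged 21 days, taken 48 h after PMSG, a gonadotropin with FSH activity, which was taken here to mean 0 h of hCG. Whether the mice at 1 h and 6 h had the same age and PMSG, and the number of animals per library, are not given in the sources used here. A library is a whole-ovary suspension, so all stromal layers were mixed. Cell barcodes end in 1, 2 or 3, and no source ties an ending to a time point, so the table was treated as 1 sample and the endings are given side by side as barcode sets 1, 2 and 3. No value below has a replicate, and none was tested.

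*Mfap5* encodes a glycoprotein of the fibrillin microfibrils on which elastic fibres form, and *Clec3b* encodes tetranectin, a secreted lectin that binds plasminogen. *Dcn* encodes decorin, a small proteoglycan that coats collagen fibrils and is abundant in fibroblasts. In many organs *Mfap5* and *Clec3b* mark fibroblasts of the adventitia together with *Pi16* and *Dpp4*. In the ovary the stroma also holds smooth muscle-like cells of the outer follicle wall, which contain actin and smooth muscle myosin.

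The level of a gene is given as its summed UMIs per 10000 summed UMIs of a group of cells. Intervals in parentheses are exact 95% intervals, Poisson for levels, conditional binomial for ratios of levels (folds) and Clopper-Pearson for shares, and they cover counting error only. They do not include the spread between animals or between libraries. The members held 9938781 UMIs and the other gate cells 27340632. The median depth was 4729 UMIs per member in set 1, 5749 in set 2 and 5957 in set 3, against 4892, 5705 and 6228 in the other gate cells.

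The share of gate cells that were members was highest in barcode set 2. It was 35.0% (32.9 to 37.2) there, from 695 members, against 22.7% (21.0 to 24.6) in set 1, from 497, and 22.6% (20.7 to 24.6) in set 3, from 421. The interval of set 2 did not overlap those of the other sets. Among gate cells of at least 3000 UMIs the shares were 22.7%, 36.2% and 23.0%, with set 2 again above the others. Summed over all gate cells, with no threshold on the markers, *Mfap5* stood at 1.26, 2.48 and 1.40 UMIs per 10000 in sets 1, 2 and 3, and *Clec3b* at 0.476, 0.673 and 0.384. These sums hold the same UMIs that the rule read, so they are no separate measure of the difference.

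**Figure D1:**
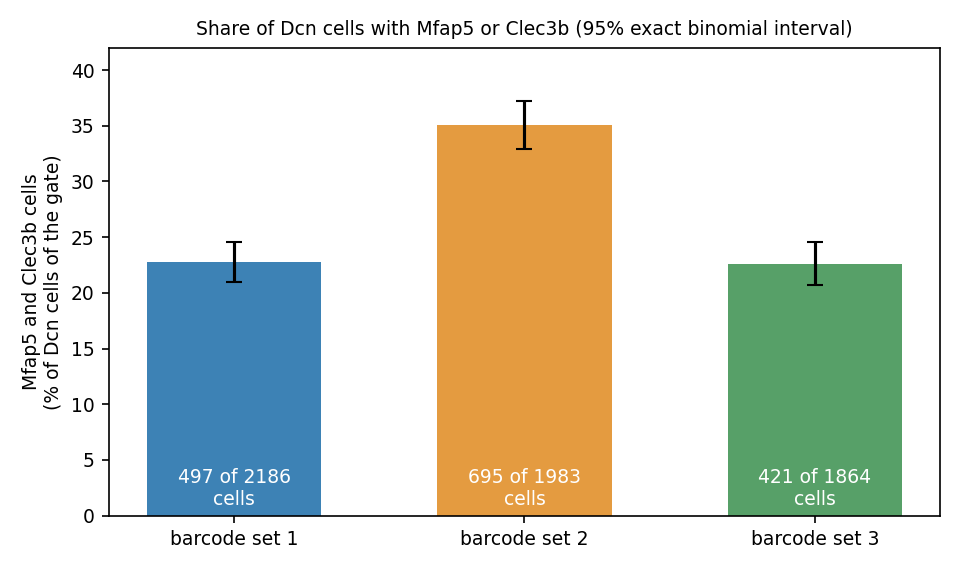
Share of the *Dcn* gate cells that were *Mfap5* and *Clec3b* cells, with either marker or both at the threshold, in percent, for each barcode set. Bars start at 0 and whiskers are exact 95% binomial intervals. Set 2 stands at 35.0%, above 22.7% in set 1 and 22.6% in set 3.

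*Mfap5* alone admitted 888 members and *Clec3b* alone 436, and 289 had both at the threshold. The split rests on few UMIs, with a median of 3 of *Mfap5* and 2 of *Clec3b* in the members that had each at the threshold. These 3 kinds of member are called *Mfap5*-only, *Clec3b*-only and double-marker cells below. In set 1 there were 240, 172 and 85 of them, in set 2 there were 405, 150 and 140, and in set 3 there were 243, 114 and 64. *Mfap5*-only cells were the most frequent kind in each set.

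Membership rested on few UMIs in many cells. Of the members, 447, or 27.7%, were admitted by exactly 1 UMI, and their median depth was 4230 UMIs. A single UMI fell under the threshold in any cell deeper than 5819.8 UMIs. Another 460 gate cells had a UMI of a marker but stayed under the threshold, at a median depth of 7808.5 UMIs. Just inside the threshold, 343 members had a highest marker value of less than 0.25 above it on the log scale, and just outside it 309 gate cells had a value of 0.75 to 1. The comparison cells therefore include some cells with marker transcripts. Barcode sequences shared between endings numbered 112 in the whole table and 2 among members.

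Outside the gate, transcripts of both markers were low in granulosa cells, and *Mfap5* was present in contractile cells. When cells of at least 3000 UMIs were sampled down to that depth, 1.65% (1.43 to 1.90) of the *Inha* cells without *Dcn*, which are granulosa cells by this marker, held a UMI of *Mfap5* and 0.315% (0.222 to 0.433) a UMI of *Clec3b*. Of the 12744 such cells, 982 were shallower and do not enter these shares. Among the cells outside the gate, 675 contractile cells had *Myh11* at 1 or more, *Dcn* under 2 and no *Rgs5*. Their *Mfap5* level was 9.37 (9.10 to 9.66) UMIs per 10000, against 6.15 (6.00 to 6.31) in the members, and their *Clec3b* level was 0.181 (0.145 to 0.225), against 1.64 (1.56 to 1.72). The members held 34.4% of all *Mfap5* UMIs of the table and 52.3% of all *Clec3b* UMIs, and the contractile cells held 24.4% and 2.70%. The values of the members follow from the rule and are given for scale only. The 112 cells with *Dcn* at 2 or more and a UMI of *Rgs5*, which the rule leaves out, had *Mfap5* at 0.977 (0.770 to 1.22). At 3000 UMIs 13.1% (7.18 to 21.4) of those deep enough held a UMI of it, with 13 of the 112 left out as shallower.

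*Dcn*, which the rule requires of members and other gate cells alike, stood at 22.5, 19.5 and 14.1 in the members of sets 1, 2 and 3 and at 21.7, 20.8 and 13.6 in the other gate cells. *Pdgfra*, a stromal receptor that the rule did not use, stood at 2.88, 3.03 and 2.07 in members and at 3.11, 2.86 and 2.45 in the other gate cells. Lists of immune and epithelial genes were low in members, where the rule itself requires *Ptprc* and *Pecam1* to be 0. The summed level of 12 myeloid and lymphoid genes, *Ptprc* included, was between 0.0695 and 0.185 UMIs per 10000 in the members of the 3 sets, and that of 10 epithelial and mesothelial genes between 0.0425 and 0.141, with *Krt7*, *Krt19* and *Cdh1* at 0. The 9 endothelial genes, *Pecam1* included, summed to 0.799, 0.594 and 0.713 in the members of sets 1, 2 and 3, against 0.744, 0.774 and 0.825 in the other gate cells. Other lists were well above 0 in both groups of cells. The 10 granulosa genes, *Inha* included, summed to 4.41, 5.61 and 2.40 in members, against 4.25, 5.92 and 2.21. *Inha* alone stood at 1.33 over all members and 1.31 over the other gate cells. The 12 theca and steroidogenic genes, *Cyp17a1* included, summed to 5.93, 6.49 and 5.25, against 9.06, 10.4 and 7.74. The rule limits *Inha* and *Cyp17a1* in both groups of cells, so these sums are not free of it. The 8 smooth muscle genes summed to 36.3, 43.1 and 63.6, against 16.0, 14.2 and 20.3, and were thus higher in members in every set.

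Genes that define adventitial fibroblasts were only partly present. Of 22 genes listed for adventitial fibroblasts, 13 had a mean level under 0.2 over members and other gate cells of the 3 sets, and they were not compared. Over all members *Pi16*, a peptidase inhibitor, stood at 0.0151 UMIs per 10000 from 15 UMIs, and *Dpp4*, a cell surface peptidase, at 0.00302 from 3 UMIs. Both defining genes were therefore near 0 in these cells. *Cd34*, a sialomucin of stromal progenitors and endothelium, was measured at 3.58, 3.15 and 0.936 in the members of sets 1, 2 and 3, against 1.53, 1.83 and 0.595. *Igfbp6*, which binds IGF-II, was at 6.66, 7.15 and 7.91, against 4.86, 5.14 and 5.40. Of the 9 adventitial genes compared, 5 were above 1 in each set and 1 under 1 in each set, beside 19.2% and 27.5% of all genes compared. None passed a fold of 2 in each set, a fold that 0.426% of all genes compared passed. As *Pi16* and *Dpp4* were near 0, the members are called *Mfap5* and *Clec3b* cells here. The name covers cells with either marker, and 289 of the 1613 had both at the threshold.

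*Nrg1*, the neuregulin that binds ErbB receptors, had been given as a marker of these cells but was not in the rule. Its level in members was 1.09 (0.969 to 1.23), 0.458 (0.397 to 0.526) and 0.192 (0.145 to 0.249) in sets 1, 2 and 3, against 0.357, 0.256 and 0.134 in the other gate cells. Members were higher in every set, by 3.06-fold (2.61 to 3.59), 1.79-fold (1.46 to 2.18) and 1.43-fold (1.02 to 1.97), and the difference between these folds was not tested. At 3000 UMIs per cell, 13.3% (11.6 to 15.1) of members of that depth held a UMI of *Nrg1*, against 6.41% (5.66 to 7.23) of the other gate cells and 0.765% (0.616 to 0.940) of the *Inha* cells. At full depth the shares were 20.3%, 10.4% and 1.53%, at median depths of 5482, 5648.5 and 6446.5 UMIs. In the contractile cells outside the gate the share was 12.4% (9.88 to 15.3) at 3000 UMIs and the level 0.527 (0.463 to 0.597), against 0.545 over all members. By set, the level in the contractile cells was 1.01 (0.856 to 1.19), 0.520 (0.412 to 0.648) and 0.114 (0.0684 to 0.178), beside the members' values above. The share in set 3 was 3.43% (1.39 to 6.94) in the contractile cells and 8.48% (5.94 to 11.6) in members, with overlapping intervals. Of the other ligands of this family, *Areg* was lower in members, at 0.00772, 1.26 and 0.0788, against 0.0143, 3.33 and 0.189, although set 1 had 2 UMIs in members. *Ereg* was not on 1 side, with folds of 1.66 in set 1 and 0.598 in set 3. Of the 4 neuregulin and ErbB genes compared, 2 were above 1 and 1 under 1 in each set, beside 19.2% and 27.5% of all genes compared.

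Across the genes the rule did not use, a gene was called when its fold was at least 2, or 0.5 or less, in each of the 3 sets. Genes had to have a mean level of at least 0.2 over members and other gate cells of the 3 sets, which left 6102 genes. A gene low in the other gate cells could thus pass through its level in members. Members were higher for 26 genes, or 0.426% of those compared, and lower for 10, or 0.164%. With a *Dcn* threshold of 3 in place of 2, 9 genes were called higher and 4 lower, and 10 of the 36 genes called at a threshold of 2 were called again. Without regard to size, 19.2% of genes were above 1 in each set and 27.5% were under 1 in each set. The median gene had a fold of 0.98.

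Genes of the contractile apparatus led the genes that were higher in members than in the other gate cells. All 6 of the smooth muscle genes with enough UMIs were called higher, beside 0.426% of all genes compared. Their median fold was 5.37, and *Des* and *Synpo2* were under the minimum level. That minimum is a mean over members and other gate cells. *Cnn1* was under 0.2 in the other gate cells of each set and passed it through the members. The count of 6 is thus partly set by the filter. The rule reads *Mfap5*, which stood at 9.37 in the contractile cells outside the gate. Those cells were chosen by *Myh11* and had it at 9.39, with *Actg2* at 7.93 and *Cnn1* at 4.51. Over all members these genes stood lower, at 1.19, 1.05 and 0.583. The list was also chosen with earlier results of these data known, so the count is a description only. *Actg2*, the enteric smooth muscle actin, stood at 0.880 (0.770 to 1.00), 0.779 (0.699 to 0.865) and 1.62 (1.48 to 1.77) in the members of sets 1, 2 and 3, against 0.212, 0.0939 and 0.159 in the other gate cells. Its folds were 4.15, 8.29 and 10.2. *Myh11*, the smooth muscle myosin heavy chain, stood at 1.52, 1.13 and 0.970 in members, against 0.344, 0.218 and 0.126. *Cnn1*, the calponin that binds actin, stood at 0.359, 0.408 and 1.05, against 0.0643, 0.0343 and 0.145. In each of these genes every set was higher in members, and the intervals of the folds excluded 2.

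*Acta2*, smooth muscle alpha actin, was measured at 23.4 (22.8 to 23.9), 23.7 (23.3 to 24.2) and 29.3 (28.7 to 29.9) in members and at 11.3, 8.41 and 10.1 in the other gate cells. *Tagln*, transgelin, was measured at 9.67, 16.5 and 30.1, against 3.98, 5.31 and 9.68. Outside the gate the contractile cells had *Acta2* at 114 and *Tagln* at 70.4. *Rgs5* cells with *Dcn* under 2 had 84.7 and 34.3. Over all members *Acta2* and *Tagln* stood lower, at 25.3 and 18.7. *Lmod1*, which nucleates actin filaments in smooth muscle, had a median fold of 5.54. Of the other called genes, *Mylk* and *Myl9*, the myosin light chain kinase and a regulatory light chain, and *Fhl1*, a LIM protein of muscle, had median folds of 2.17, 2.17 and 2.21. These 3 genes fall outside the rule for named genes and are named after their values were seen. *Fbxl22*, an F-box protein of muscle, had a median fold of 2.51.

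The CArG box is the DNA motif that serum response factor binds in many smooth muscle genes. It was searched on both strands in its strict form, which is CC, 6 bases of A or T, and GG. The search covered promoter windows of 300 bases from RefSeq (GRCm38.p6), which run from 250 bases before to 50 bases after the start site. Of the 26 genes higher in members, 21 matched the promoter table, and 3 of them, or 14.3%, held a CArG box in at least 1 window. The share over all 27025 genes of the table was 1.81%, and a share over the genes compared here was not taken. The 14.3% rests on 3 genes of a list drawn from these same data, so it is a description only. The 3 sites are shown because they lie in promoters of genes that were higher in members, with the motif in capitals, 5′ to 3′ on the strand of the gene.
*Fbxl22*, chr9:66514796-66514825, minus strand: aaaagaaatcCCTTTTAAGGaaaacttgta
*Fhl1*, chrX:56779571-56779600, plus strand: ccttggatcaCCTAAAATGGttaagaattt
*Myl9*, chr2:156775293-156775322, plus strand: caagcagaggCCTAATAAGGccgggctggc
The motif began at position -222, -102 and -161 from the start site. None of the 5 matched genes of the smooth muscle list, *Acta2*, *Cnn1* and *Lmod1* among them, held this strict form. *Myh11*, *Actg2* and *Tagln* did not match the table. Other forms of the box and sites outside the windows were not searched, so a gene without a match may still have one. None of the 6 matched genes that were lower in members held it. A match is a sequence of letters and was not tested for binding.

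The genes called higher included some of the extracellular matrix. *Itgbl1*, a secreted integrin-like protein, stood at 0.591 (0.501 to 0.692), 0.756 (0.677 to 0.841) and 0.377 (0.310 to 0.454) in the members of sets 1, 2 and 3, against 0.0939, 0.168 and 0.0393. *Aspn*, asporin, a proteoglycan related to decorin, stood at 3.03, 2.55 and 0.853, against 0.769, 0.871 and 0.198. *Adamtsl2*, a microfibril-binding protein, stood at 0.606, 0.524 and 0.271, against 0.136, 0.183 and 0.0693. The levels of *Aspn* and *Adamtsl2* were lowest in set 3 in both groups of cells, and members were higher in every set. Outside the gate, the contractile cells had *Itgbl1* at 0.976 and *Aspn* at 4.63, above the 0.602 and 2.18 of all members, and *Rgs5* cells with *Dcn* under 2 had *Aspn* at 7.17. *Lox*, the lysyl oxidase that crosslinks collagen and elastin, was measured at 0.490, 0.682 and 0.956, against 0.198, 0.248 and 0.327. *Fmod*, fibromodulin, and *Col11a1*, a chain of a fibrillar collagen, had median folds of 3.68 and 2.52.

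By list, microfibril and elastic fibre genes were mostly higher in members by less than the fold used for a call. Of the 18 compared, 2 were called, *Lox* and *Adamtsl2*, and 14 were above 1 in each set, with a median fold of 1.43. Of all genes compared, 0.426% were called higher and 19.2% were above 1 in each set. *Eln*, elastin, was at 0.880, 0.618 and 1.06 in the members of sets 1, 2 and 3, against 0.345, 0.315 and 0.348, and its fold of 1.96 in set 2 kept it from the call. Outside the gate *Eln* stood at 3.77 in cells with *Pecam1* at 1 or more and *Inha* under 2. It stood at 1.81 in *Rgs5* cells with *Dcn* under 2 and 0.881 in the contractile cells, against 0.816 over all members. The *Pecam1* cells held 46.9% of all *Eln* UMIs and the members 9.75%. *Mfap4*, another microfibril protein, had folds of 2.58, 1.92 and 2.41. *Emilin2*, an elastin interface protein, had folds of 2.78, 1.63 and 2.59. *Fbn2*, fibrillin-2, named after its values were seen, went the other way, at 0.985, 0.494 and 0.418, against 1.55, 1.08 and 0.744.

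All 7 small leucine-rich proteoglycans compared were above 1 in each set, with a median fold of 1.79, where 19.2% of all genes compared were above 1 in each set. *Ogn*, osteoglycin, stood at 15.7, 14.5 and 5.03 in members and at 8.79, 9.57 and 1.95 in the other gate cells. Of the 21 collagen genes compared, 8 were above 1 and 7 under 1 in each set, beside 19.2% and 27.5% of all genes compared, and none was called. *Col1a1*, of fibrillar collagen I, stood at 16.0, 18.3 and 14.1, against 10.7, 10.9 and 8.08, and the median fold over the list was 1.02. *Col15a1*, of a collagen beside basement membranes, stood at 0.568, 0.325 and 0.809, against 1.42, 0.955 and 1.37, and *Col18a1*, its relative and the source of endostatin, at 0.120, 0.0858 and 0.295, against 0.202, 0.126 and 0.833. Members were thus higher in *Col1a1* and lower in *Col15a1* and *Col18a1* in every set.

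The remaining genes called higher had varied roles. *Angpt4*, a ligand of the Tie2 receptor, had a median fold of 4.86, *Dner*, a Notch-related membrane protein, 4.38, and *Rimklb*, an enzyme that ligates glutamate, 4.06. *Nupr1*, a nuclear protein of the stress response, had 2.79, *Hspb2*, a small heat shock protein of muscle, 2.60, and *Kcnab1*, a potassium channel subunit, 2.54. *Fam180a* had folds of 2.93, 2.57 and 7.16. *Cyp1b1*, a cytochrome P450, *Bdnf*, a neurotrophin, and *S100a6*, a calcium-binding protein, had median folds of 2.47, 2.36 and 2.22 and are named after their values were seen.

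**Figure D2:**
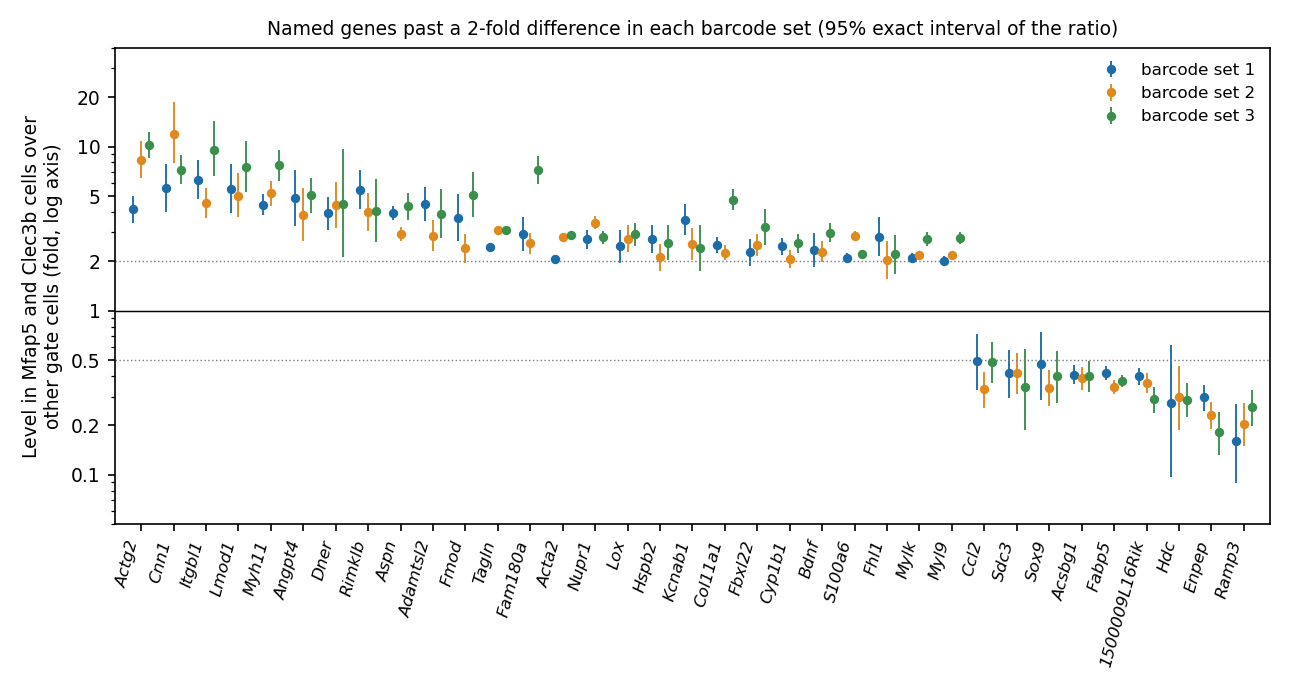
Fold of the level in *Mfap5* and *Clec3b* cells over the other gate cells, on a log axis, for the 26 genes higher and 9 of the 10 genes lower in each barcode set, with exact 95% intervals. Dotted lines mark folds of 2 and 0.5. The smooth muscle genes *Actg2*, *Cnn1*, *Lmod1* and *Myh11* lie among the 5 of largest median fold, and *Ramp3*, at 0.20, is the lowest.

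The genes that were lower in members included a membrane peptidase and a receptor partner. *Enpep*, aminopeptidase A, stood at 0.510 (0.426 to 0.604), 0.298 (0.249 to 0.353) and 0.161 (0.118 to 0.214) in the members of sets 1, 2 and 3, against 1.72, 1.29 and 0.889. *Ramp3*, a partner of the receptors for adrenomedullin, stood at 0.0579, 0.113 and 0.233, against 0.360, 0.551 and 0.903. Both genes were lower in the members of each set. *Hdc*, which makes histamine, *1500009L16Rik*, the fatty acid-binding *Fabp5*, *Acsbg1*, an acyl-CoA synthetase, *Sox9*, a transcription factor, *Sdc3*, a syndecan, and *Ccl2*, a monocyte chemokine, had median folds between 0.29 and 0.49.

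Several lists lay under 1 without calls. All 6 cell cycle genes compared were lower in members in each set, with a median fold of 0.68. *Ube2c*, of mitotic exit, stood at 0.367, 0.375 and 0.274 in members, against 0.849, 0.452 and 0.558. Of 8 theca and steroidogenic genes, 7 were lower in each set, with a median fold of 0.69. *Cyp11a1*, the first enzyme of steroid synthesis, stood at 1.19, 0.582 and 0.524, against 2.32, 1.04 and 1.06. Of 13 immediate early and heat shock genes, which also respond to tissue dissociation, 10 were lower in each set, with a median fold of 0.85. These lists were described by counts, which are to be read against the 27.5% of all genes that were under 1 in each set.

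Growth factor and signalling genes differed gene by gene. *Angpt1*, an activating ligand of Tie2, stood at 1.35, 1.04 and 0.562 in the members of sets 1, 2 and 3, against 0.595, 0.523 and 0.197, while *Angpt2*, which can oppose it, stood at 0.181, 0.129 and 0.120, against 0.457, 0.241 and 0.296. *Vegfc*, a ligand for lymphatic endothelium, had folds of 2.84, 1.81 and 1.98. *Bmp3*, a BMP family member, had folds of 2.70, 2.74 and 1.61, and *Sfrp1*, a Wnt antagonist, 1.48, 1.57 and 3.04. None of the 12 growth factor genes and none of the 14 Wnt, BMP and TGF-beta genes compared was called, beside 0.426% of all genes called higher and 0.164% called lower. The ligands *Angpt4* and *Bdnf*, called higher above, were not in these lists. Of the growth factor genes 7 were above 1 and 2 under 1 in each set, and of the Wnt, BMP and TGF-beta genes 6 and 4. Over all genes compared, 19.2% were above 1 and 27.5% under 1 in each set. The 23 fibroblast transcription factors compared leaned lower, with 3 above 1 and 10 under 1 in each set, none called and a median fold of 0.899. Among them *Osr1* stood at 0.622, 0.0903 and 0.202, against 0.207, 0.0241 and 0.109, *Tcf21* had folds of 1.73, 1.53 and 1.72, and *Twist1* had 0.644, 0.569 and 0.498.

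Chemokine and protease genes were also mixed. Of 8 complement and chemokine genes compared, 5 were above 1 and 2 under 1 in each set. In that list 1 gene was called lower, beside 0.164% of all genes compared. Of 21 protease and inhibitor genes, 9 were above 1 and 5 under 1 in each set, and none was called. Over all genes compared the shares above and under 1 were 19.2% and 27.5%. *Cxcl14*, a chemokine of stroma and epithelium, stood at 5.98, 5.42 and 8.14 in members, against 3.03, 2.85 and 4.54. *Serping1*, the C1 inhibitor, had folds of 1.60, 1.61 and 1.97. *Adamts5*, a protease of versican and aggrecan, stood at 5.52, 2.16 and 1.08, against 2.36, 0.816 and 0.965, so members were higher by over 2-fold in sets 1 and 2 and by 1.12-fold in set 3. *Timp3*, an inhibitor of metalloproteases, stood at 1.27, 1.63 and 2.91, against 2.70, 3.71 and 2.81. *Plau*, urokinase, was lower in members in each set, with folds of 0.378, 0.604 and 0.322.

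Among gate cells the contractile genes were highest in *Mfap5*-only cells. Between *Mfap5*-only and *Clec3b*-only cells, 36 of 6066 genes, or 0.593%, were at least 2-fold higher in *Mfap5*-only cells in each set, and 5, or 0.0824%, were at least 2-fold higher in *Clec3b*-only cells. *Myh11* stood at 2.72 (2.45 to 3.02), 1.79 (1.63 to 1.96) and 1.31 (1.15 to 1.49) in the *Mfap5*-only cells of sets 1, 2 and 3. In *Clec3b*-only cells it stood at 0.244 (0.147 to 0.381), 0.0852 (0.0343 to 0.176) and 0.0154 from 1 UMI, and in the other gate cells at 0.344, 0.218 and 0.126. *Clec3b*-only cells were thus at or under the level of the other gate cells for *Myh11*. *Acta2* stood at 38.1, 32.3 and 37.0 in *Mfap5*-only cells, which was 7.31-fold, 5.23-fold and 3.35-fold its level in *Clec3b*-only cells. The direction of the contractile genes therefore depended on the marker. With *Clec3b* alone as the marker, *Actg2*, *Cnn1*, *Lmod1*, *Myh11*, *Tagln* and *Acta2* were all lower in the cells so chosen, with median folds between 0.40 and 0.75. The comparison group then held the *Mfap5*-only cells. Against the other gate cells alone, the median fold of the smooth muscle list in *Clec3b*-only cells was 0.60.

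The median fold of the smooth muscle list over the other gate cells was 8.64 in *Mfap5*-only cells and 2.10 in double-marker cells. A UMI of *Myh11*, *Actg2* or *Cnn1* was present in 30.5% (27.5 to 33.7) of *Mfap5*-only cells, 15.9% (11.9 to 20.7) of double-marker cells, 5.96% (3.93 to 8.62) of *Clec3b*-only cells and 10.0% (9.13 to 10.9) of the other gate cells. In number these were 271, 46, 26 and 442 cells. Median depths were 5861.5, 5563, 4877.5 and 5648.5 UMIs. Most *Mfap5*-only cells therefore had no UMI of these 3 genes. When every gate cell with such a UMI was left out, 1270 members remained and 11 genes were called higher, of which 10 had been called before. *Itgbl1*, *Aspn*, *Adamtsl2*, *Fmod*, *Lox*, *Rimklb*, *Nupr1*, *Kcnab1*, *S100a6* and *Fam180a* kept the call and *Eln* was added, with median folds of 7.40 for *Itgbl1*, 3.08 for *Aspn* and 2.90 for *Eln*. *Acta2* and *Tagln* then had median folds of 1.83 and 1.94. Some genes that lost the call had median folds close to before. These were 4.24 for *Dner*, 4.87 for *Angpt4*, 2.59 for *Bdnf*, 2.48 for *Hspb2*, 2.43 for *Col11a1* and 2.20 for *Cyp1b1*. Others that lost the call fell. *Lmod1* went from 5.54 to 4.24, *Fbxl22* from 2.51 to 1.60 and *Myl9* from 2.17 to 1.59. *Mylk* went from 2.17 to 1.51 and *Fhl1* from 2.21 to 1.53. This alternative was chosen after the data had been seen, and it selects on 3 of the called genes.

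Matrix genes also differed between the 3 kinds of cell. *Itgbl1* stood at 0.678, 0.867 and 0.411 in *Mfap5*-only cells, at 0.907, 0.762 and 0.573 in double-marker cells and at 0.244, 0.390 and 0.154 in *Clec3b*-only cells, all above the other gate cells of the same set. *Aspn* stood at 4.12, 3.30 and 1.13 in *Mfap5*-only cells and at 1.09, 0.986 and 0.0768 in *Clec3b*-only cells, the last from 5 UMIs and under the 0.198 of the other gate cells. Both genes were among the 36 higher in *Mfap5*-only cells, as was *Col11a1*. *Eln* was higher in *Clec3b*-only cells in set 1 and higher in *Mfap5*-only cells in sets 2 and 3. In set 1 it stood at 1.38 (1.13 to 1.66) in *Clec3b*-only cells and 0.588 (0.465 to 0.734) in *Mfap5*-only cells, in set 2 at 0.377 and 0.668, and in set 3 at 0.338 (0.212 to 0.512) and 1.47 (1.30 to 1.66). The difference between sets was not tested. The 5 genes higher in *Clec3b*-only cells were *Abi3bp*, a matrix protein, *Ifi203*, an interferon-inducible gene, *Emcn*, endomucin, which is known from endothelium, *Gdpd3*, a phosphodiesterase, and *Sned1*, a matrix protein. *Abi3bp* stood at 0.977, 0.609 and 0.783 in *Clec3b*-only cells, against 0.294, 0.251 and 0.238 in *Mfap5*-only cells. These genes were named after their values were seen.

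**Figure D3:**
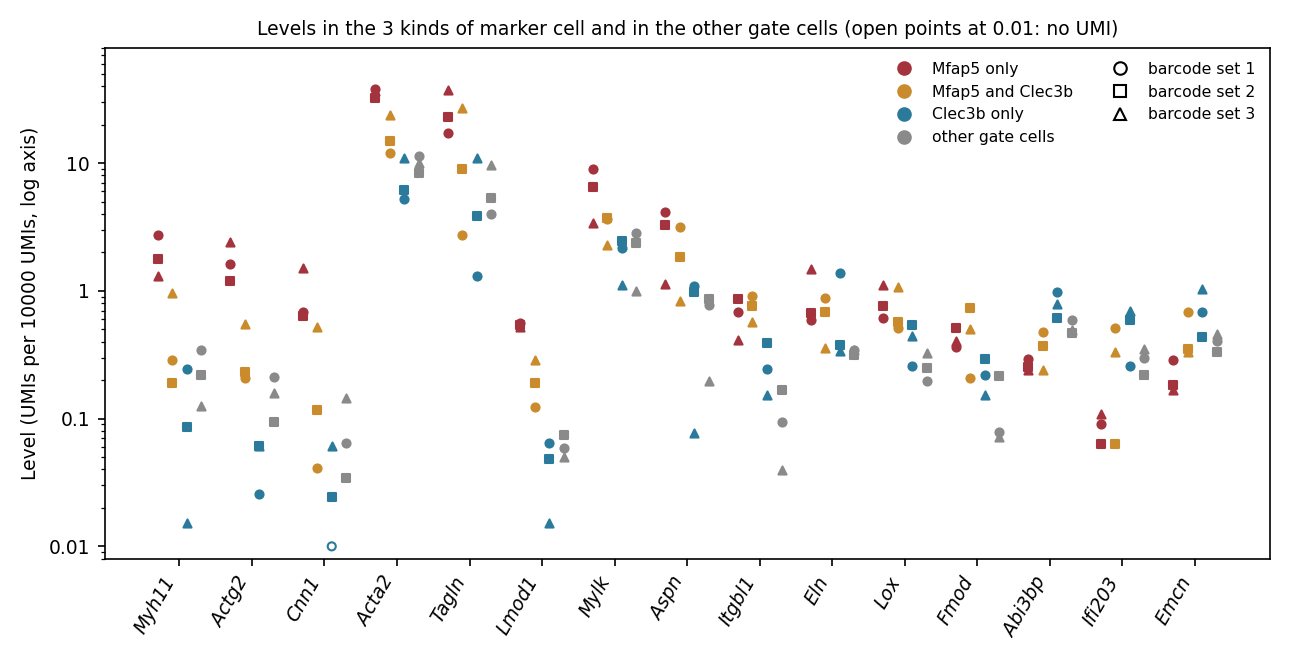
Level of 15 genes, in UMIs per 10000 UMIs on a log axis, in *Mfap5*-only cells, double-marker cells, *Clec3b*-only cells and the other gate cells of each barcode set. Open points at 0.01 stand for no UMI. *Myh11*, *Actg2*, *Cnn1* and *Acta2* are highest in *Mfap5*-only cells of every set, and *Abi3bp* is higher in *Clec3b*-only than in *Mfap5*-only cells.

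With the 8 genes of the rule left out, members had more members among their nearest neighbours in expression than the other gate cells had. Each set was analysed alone, with 2000 variable genes, 20 principal components and 15 nearest neighbours. On average 43.5%, 53.1% and 46.0% of the neighbours of a member were members in sets 1, 2 and 3, against 15.4%, 24.5% and 14.8% for the other gate cells. The members' shares of the gate were 22.7%, 35.0% and 22.6%. Over 50% of the neighbours were members for 43.9%, 52.1% and 46.1% of members and for 4.91%, 11.7% and 4.92% of the other gate cells. In sets 1 and 3 most members thus had no majority of members around them. By kind, *Clec3b*-only cells stood closest to the shares of the gate, with on average 27.2%, 37.3% and 28.9% members among their neighbours, while double-marker cells had 58.7%, 61.6% and 55.6%.

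Louvain clustering gave 13, 15 and 14 clusters of gate cells in sets 1, 2 and 3. In each set 1 cluster led by *Myh11* and *Actg2* held mostly members, with 41 of 64 cells, 94 of 112 and 37 of 48. Among these members, 39, 87 and 35 were *Mfap5*-only and 1, 1 and 0 were *Clec3b*-only. A further cluster with *Eln* and *Aspn* among its leading genes held 98 members of 142 cells in set 1 and 94 of 139 in set 3, with 16 and 11 *Clec3b*-only cells. In set 2 the clusters next in member share held 44 of 82, 101 of 189 and 116 of 224 cells and were led by *Abca8a*, *Bdnf* and *S100a6*. Clusters whose interval lay above the members' share of the gate held 63.0%, 51.1% and 59.4% of members and 30.0%, 30.6% and 23.4% of gate cells. The members were thus spread over several clusters, and no cluster was given a cell type name.

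**Figure D4:**
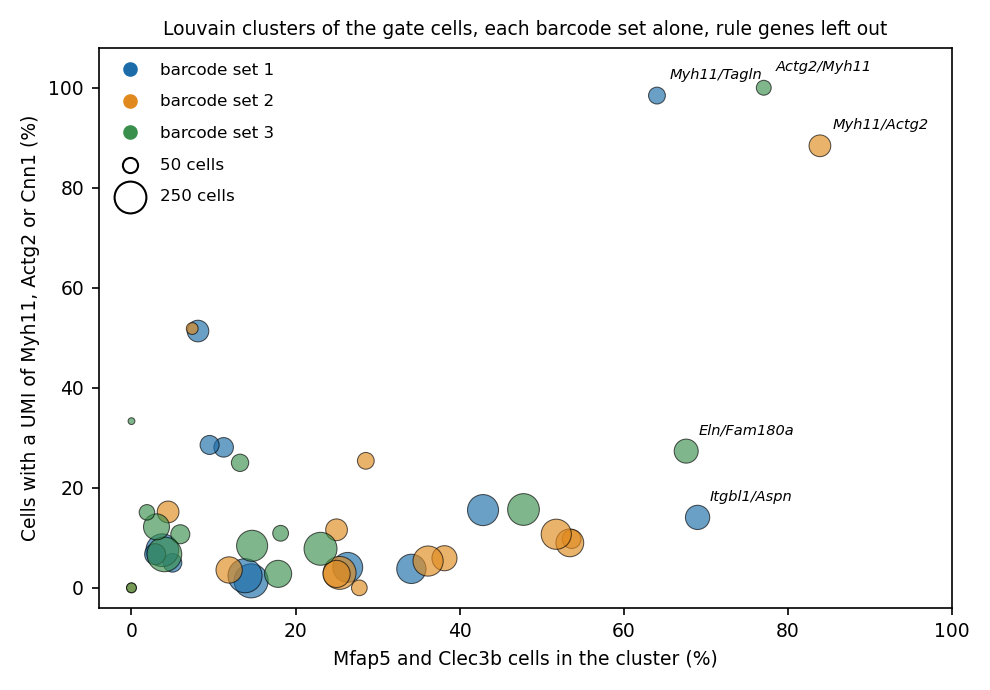
Each point is 1 Louvain cluster of gate cells of 1 barcode set, with the area growing with its cells, the share of *Mfap5* and *Clec3b* cells on the x axis and the share of cells with a UMI of *Myh11*, *Actg2* or *Cnn1* on the y axis, both in percent. *Mfap5* and *Clec3b* cells are those with either marker or both at the threshold. The *Myh11* and *Actg2* clusters lie at the upper right, with 64.1%, 83.9% and 77.1% members, and the clusters led by *Itgbl1* and *Eln* lie at 69.0% and 67.6% members, with a contractile UMI in 14.1% and 27.3% of cells.

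Between barcode sets the members differed in many genes, and the other gate cells differed beside them. At a fold of 2 the members of set 2 over set 1 were higher in 118 of 6096 genes (1.94%) and lower in 92 (1.51%). Set 3 over set 2 was higher in 450 of 5893 genes (7.64%) and lower in 352 (5.97%). Set 3 over set 1 was higher in 445 of 6103 genes (7.29%) and lower in 499 (8.18%). In the other gate cells, 118, 450 and 443 of the higher genes were on the same side of 1, in the order above. Of the lower genes, 91, 351 and 498 were. A fold of 2 was also passed there by 90, 335 and 284 of the higher genes and by 45, 255 and 315 of the lower ones. By side of 1 most of these differences were thus shared by the gate. At a fold of 2 most were shared too, except for the lower genes of set 2 over set 1, at 45 of 92. The share of all genes compared on each side of 1 in the other gate cells was not taken. Each pair of comparisons shares a set, and differences of library, depth and time point between sets cannot be told apart.

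Of the genes higher in set 3, *Timp1*, a secreted inhibitor of matrix metalloproteases, stood at 0.440 (0.363 to 0.529), 0.605 (0.535 to 0.682) and 20.1 (19.6 to 20.6) in the members of sets 1, 2 and 3. Set 3 over set 2 was 33.2-fold (29.4 to 37.7) in members and 17.6-fold (16.3 to 19.1) in the other gate cells. Set 3 was thus far above both other sets in either group of cells. *Mt2*, a metallothionein, stood at 1.19, 4.29 and 18.8 in members and at 1.56, 4.02 and 14.5 in the other gate cells. *Vcan*, the large hyaluronan-binding proteoglycan versican, stood at 0.896, 0.957 and 4.36, against 0.886, 0.848 and 2.92. *Alpl*, alkaline phosphatase, stood at 0.185, 0.305 and 3.66, against 0.204, 0.283 and 2.56. *Frzb*, a Wnt antagonist, was higher in set 3 than in set 2 by 7.81-fold (6.90 to 8.86), at 5.34 against 0.684.

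Other genes were highest in set 2, or were higher there than in the 1 other set given. *Ccn2*, a matricellular protein also known as connective tissue growth factor, stood at 1.42 (1.28 to 1.58), 7.66 (7.40 to 7.92) and 1.29 (1.16 to 1.42) in members and at 1.29, 4.02 and 0.402 in the other gate cells. *Thbs1*, thrombospondin-1, stood at 2.17, 9.33 and 2.18, against 2.21, 7.17 and 1.68. *Errfi1*, a feedback inhibitor of the EGF receptor, stood at 0.865 in set 1 and 5.85 in set 2, and *Cebpb*, a transcription factor, at 2.42, 12.9 and 3.14. Sets 1 and 3 were alike for *Ccn2* and *Thbs1* in members, with overlapping intervals. *Fosl2*, an AP-1 transcription factor, stood at 3.11 in set 2 and 0.884 in set 3 in members, against 3.32 and 1.11 in the other gate cells.

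Some genes were highest in set 1, or were higher there than in the 1 other set given. *Adamts5* stood at 5.52 (5.24 to 5.81), 2.16 (2.03 to 2.31) and 1.08 (0.964 to 1.21) in members. *Mme*, the membrane peptidase neprilysin, stood at 2.17, 1.07 and 0.161 in members and at 1.86, 0.908 and 0.103 in the other gate cells. *Osr2*, a transcription factor, stood at 1.95 in set 1 and 0.496 in set 2, against 2.25 and 0.453. *Ptprd*, a receptor phosphatase, stood at 2.68, 2.60 and 0.428, and *Gas6*, a ligand of the Axl receptor, at 7.98, 6.09 and 1.59, so these genes were lower mainly in set 3. *Htra3*, a secreted serine protease, stood at 2.71 in set 1 and 0.675 in set 3, against 1.47 and 0.305 in the other gate cells.

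**Figure D5:**
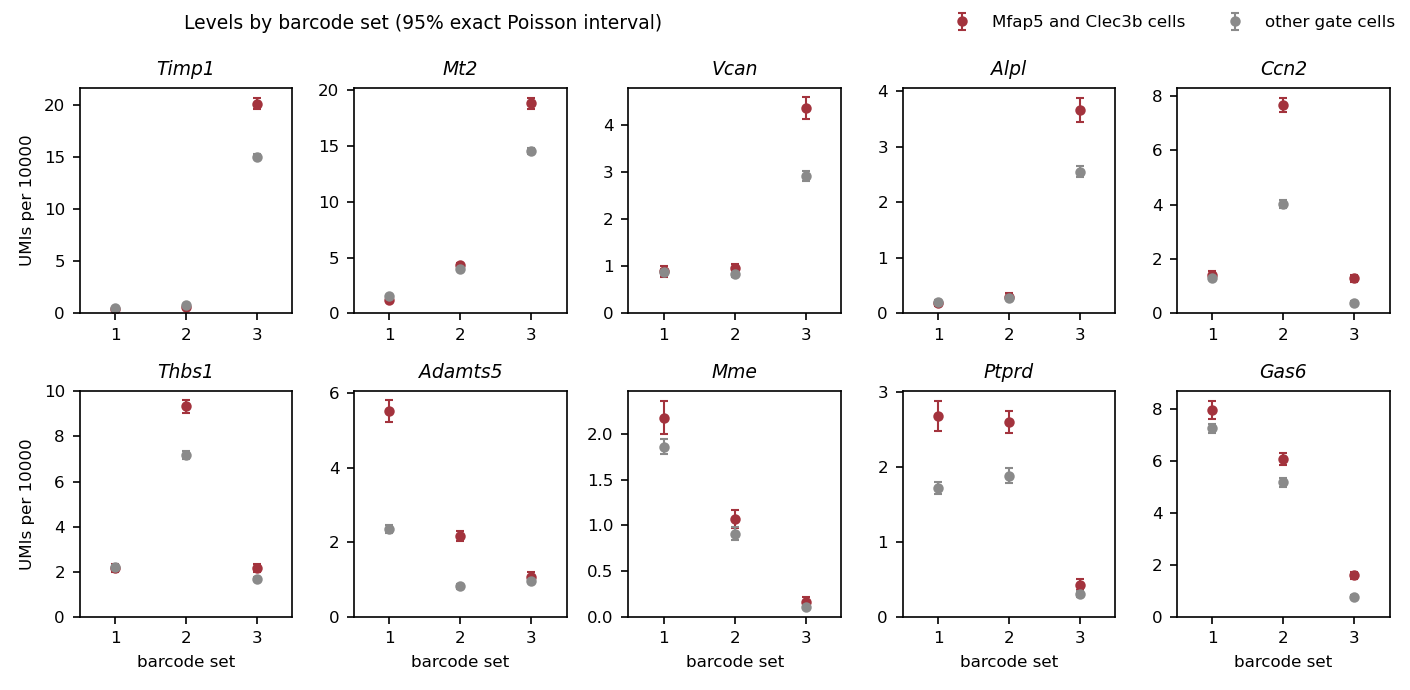
Level of 10 genes in UMIs per 10000 UMIs, on linear axes from 0, in *Mfap5* and *Clec3b* cells and in the other gate cells of barcode sets 1, 2 and 3, with exact 95% Poisson intervals. *Timp1*, *Mt2*, *Vcan* and *Alpl* are highest in set 3, *Ccn2* and *Thbs1* in set 2, and *Adamts5* and *Mme* in set 1, in both groups of cells.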

How the data were processed

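The authors deposited 1 table of 31776 cells and 24958 genes from 10X Genomics scRNA-seq of mouse ovary. The authors scaled each cell to 10000 UMIs and took the natural log of each scaled count plus 1, which is the unit as deposited. The submitters' processing notes name Cell Ranger, Seurat and mm10, without versions. Filters on cells and the doublet step are not given in the sources used here. Back-transformed values gave whole UMIs within 0.01 for 100% of 80167176 values above 0, and these UMIs were summed per group and barcode set. Whole reads behind the UMIs are unknown, and depth was 539 to 23607 UMIs per member.

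The genes named are up to 6 per list with the largest fold, the 20 of largest and 10 of smallest median fold among called genes, and the 12 of largest fold each way between sets at a mean level of at least 1. *Pdgfra* was added as a check of the gate. 1 gene that was lower in members is not reported here. Members and lists were chosen with earlier results of these data known. A count of 0 was set to 3 UMIs in folds, and no fold was formed when both groups had 3 or fewer. No doublets were removed. Scripts were tested on simulated data. Coordinates are GRCm38. Alternatives varied the marker, *Dcn*, *Inha* and *Cyp17a1* thresholds, depth, totals, minimum level and scale. Neighbours and Louvain clusters were computed with scanpy 1.11.5, python-igraph 0.11.9 and scikit-learn 1.9.0, intervals with scipy 1.17.1, and sums with numpy 2.4.6 in Python 3.11.15.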

Additional observations from a re-analysis of the deposited data

Results flagged for a closer look

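In 2 genes of the lists, members were at least 1.5-fold higher than the other gate cells in 1 barcode set and lower by a like factor in another, with intervals that excluded 1. *Ereg*, epiregulin, an EGF receptor ligand induced in ovulation, had a fold of 1.66 in set 1, 0.695 in set 2 and 0.598 in set 3. *Tnfaip6*, a hyaluronan-binding protein of the ovulatory matrix, had a fold of 1.94 in set 1, 0.638 in set 2 and 1.26 in set 3. The difference between the sets was not tested in either gene.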

How the results depend on the processing

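Members and other gate cells were compared within each barcode set. Between sets no paired analysis was possible because each library is the only one of its time point, and no test was run. Of 429 gene folds recomputed over the alternatives, 412 stayed on their side of 1 and 17 changed side, and 48 moved by over 1.5 times. The members' share of the gate was highest in set 2 under every alternative run. Over all sets it was 26.7%, and 34.4% with any UMI of either marker, 19.5% with *Mfap5* alone, 12.02% with *Clec3b* alone and 4.79% with both markers required. With 2 alternatives chosen after seeing the data, it was 24.2% without cells that had a UMI of *Myh11*, *Actg2* or *Cnn1* and 20.9% without members admitted by 1 UMI.

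The 26 genes higher in members became 41 with *Mfap5* alone, 12 with both markers, 3 with *Clec3b* alone, 9 at a *Dcn* threshold of 3, 9 at a minimum level of 1, 66 with no minimum, 46 without set 2 and 11 without the contractile cells. The 10 lower genes became 4 with *Clec3b* alone, 4 at a *Dcn* threshold of 3, 1 by the mean log difference, 3 at a minimum level of 1, 77 with no minimum, 19 without set 2 and 22 without set 3. Of the 36 called genes, the call was kept by 23 with any UMI, 22 with *Inha* and *Cyp17a1* at 0, 18 without the contractile cells, 11 with both markers, 10 at a *Dcn* threshold of 3, 9 by the mean log difference and 5 with *Clec3b* alone.

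With both markers required, the median fold was 0.666 for *Actg2*, 0.671 for *Cnn1*, 0.955 for *Tagln*, 0.479 for *Myh11* and 0.565 for *Fhl1*. With *Clec3b* alone it was 0.734 for *Lmod1*, 0.862 for *Myl9*, 0.986 for *Fam180a*, 0.411 for *Actg2*, 0.398 for *Cnn1*, 0.672 for *Tagln*, 0.778 for *Fbxl22*, 0.416 for *Myh11*, 0.915 for *Mylk*, 0.751 for *Acta2* and 0.730 for *Fhl1*. Both settings place *Mfap5*-only cells in the comparison group. At a *Dcn* threshold of 3 it was 0.953 for *Fbxl22*, and the cause was not tested.

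Between sets, the 210 genes of set 2 over set 1 became 606 with both markers, 342 with *Clec3b* alone, 361 with *Inha* and *Cyp17a1* at 0, 41 at a minimum level of 1 and 1943 with no minimum. The 802 of set 3 over set 2 became 1219 with both markers, 202 at a minimum level of 1 and 3234 with no minimum, and the 944 of set 3 over set 1 became 1486, 237 and 3469. The setting with both markers had 289 members.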

Other observations

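*Pparg*, a nuclear receptor best known from adipocytes, was higher in members in each set, at 0.459, 0.341 and 0.178 UMIs per 10000, against 0.155, 0.218 and 0.0507 in the other gate cells. By its mean level over the sets, the fold over the other gate cells was 3.11 in *Mfap5*-only cells and 2.13 in double-marker cells. In *Clec3b*-only cells it was 0.739, so they were not higher. *Adipoq*, the adipocyte hormone adiponectin, had no UMI in members. *Prlr*, the prolactin receptor, was lower in members in each set, at 0.846, 0.271 and 0.329, against 1.29, 0.401 and 0.824. Contractile UMIs were also found in gate clusters with few members. In set 1 a cluster of 111 cells led by *Fabp5* and *Lamc3* held 8.11% members, and 51.4% of its cells had a UMI of *Myh11*, *Actg2* or *Cnn1*.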
